A study of Mus musculus with 6 samples.

Results

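The genes described are the 10 members of the laminin, nidogen and basement membrane proteoglycan group that were listed for this description: *Lama2*, *Lama4*, *Lama5*, *Lamb1*, *Lamb2*, *Lamc1*, *Nid1*, *Nid2*, *Hspg2* and *Agrn*. They were taken by their symbols from the 23284 genes listed for each sample, and all 10 were found. RNA-seq had been performed on ECFP+ osteoblasts (OBs) isolated by FACS from ectopic bone that BMP-2 had induced under the skin, with 3 samples of day 10 and 3 samples of day 14 after implantation. All samples came from male *Col2.3*-ECFP mice aged 12 to 16 weeks, in which a fragment of the type I collagen promoter drives ECFP in OBs, and every implant was a collagen sponge carrying 2.5 μg rhBMP-2. No untreated bone or sponge without BMP-2 was analysed here. The question put by the design was how gene expression in OBs differed between the days, between which the cells changed their shape. The bone was digested with trypsin and then with collagenase II, 1 time for day 10 and 2 times for day 14, so the day and the number of digestions cannot be told apart. Cells stained for CD45 and dead cells were gated out. The titles place 3 samples in day 14, whereas their descriptions name day 14 for replicate 1, day 15 for replicate 2 and day 16 for replicate 3; the titles were followed. The labels call the samples biological replicates without naming the mice, and p-values measure the spread between these samples.

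Basement membranes are thin sheets of matrix that lie against the surface of many cells. Laminins are secreted trimers of an α, a β and a γ chain, which assemble on the cell surface into a network that integrins and dystroglycan bind. Nidogens are rod-like linkers that join the γ1 chain to type IV collagen, and perlecan and agrin are large heparan sulphate proteoglycans of the same sheets. In bone, these sheets are best known around blood vessels, nerves, muscle and fat cells, while the α4 chain and nidogens are also made by mesenchymal cells that do not rest on a continuous sheet.

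Depth and identity were checked first. Expression was given as FPKM, read fragments scaled both to the length of the transcript and to the mapped reads of the sample, in which levels of different genes can be set side by side. From the steps between low FPKM values, each sample was estimated to hold 4559041 to 7792115 mapped reads. The OB markers *Dlx5*, *Runx2*, *Sp7*, *Alpl*, *Col1a1*, *Ibsp* and *Bglap2* were detected in all 6 samples, and *Col1a1*, the main bone collagen chain, was at 14151 to 34157 FPKM. Their summed level was 28368 to 54192 FPKM on day 10 and 15669 to 38269 FPKM on day 14. Day 14 replicate 2 stood apart from the other day 14 samples: the cartilage collagen gene *Col2a1* was at 688 FPKM in it against 8.75 and 12.1 FPKM, its summed OB marker level was the highest of day 14, and 8 myeloid markers summed to 11.5 FPKM in it against 230 and 549 FPKM. Results were therefore also computed without this sample. In the day 10 samples *Col2a1* was at 189 to 373 FPKM and the 8 myeloid markers summed to 31.1 to 134 FPKM. The summed OB marker level of day 14 replicate 2 (38269 FPKM) lay within the range of day 10. Fewer cells of a type and less RNA per cell cannot be told apart in such bulk samples.

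Of the 10 members, 9 had a higher mean on day 14 than on day 10, and 5 of them, *Lama2*, *Lama4*, *Lamb1*, *Lamc1* and *Nid1*, had an unadjusted p under 0.05 (limma on log2(FPKM + 0.1)). None of the 10 passed an adjusted p of 0.05 over all genes, and their adjusted p-values lay between 0.310 and 0.997. Over all 19526 genes tested, 0.0154% (3 genes) passed the adjusted threshold, 5.6% had an unadjusted p under 0.05 with a higher level on day 14, and 4.4% with a lower level. The median log2 fold change (day 14 against day 10) was 0.46 over the members and −0.04 over all genes tested, of which 46.5% had a higher fitted level on day 14. A fold change over 2 was seen in 1 member, *Lama2*, while 5.25% of all genes were higher and 8.39% lower by that rule. In 4 members, *Lama2*, *Lama4*, *Lamc1* and *Nid1*, the 3 day 14 samples all lay above the 3 day 10 samples, and no member showed the opposite order; the shares over all genes were 7.59% higher and 6.67% lower, and 11.4% were higher among the 11162 genes with a mean of at least 1 FPKM. This order depended on scaling. When each sample was scaled to the same sum of FPKM (TPM), *Lama2* alone kept it, because day 10 replicate 3 had the lowest sum. Without day 10 replicate 3, 6 members had it, with *Lamb1* and *Nid2* added, and without day 14 replicate 2, 5 members had it, with *Lamb1* added. Leaving out a sample can only keep or raise such a count. The shares over all genes above are for 3 against 3 samples and cannot be set beside these 2 counts.

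**Figure D1:**
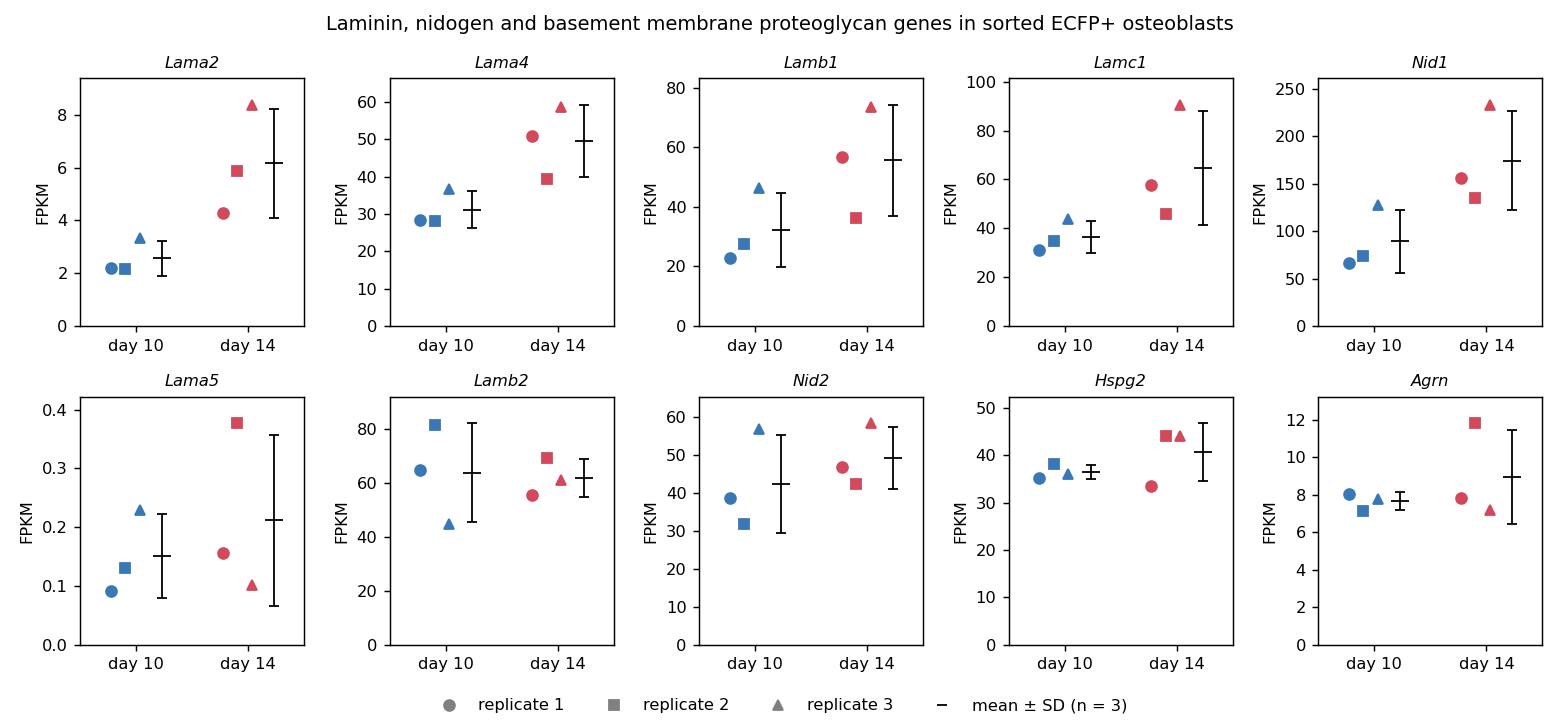
FPKM of the 10 genes (y axis, linear, from 0) in each sample of day 10 (blue) and day 14 (red), with symbols for replicate numbers and bars for means ± SD (n = 3). In the upper row *Lama2*, *Lama4*, *Lamc1* and *Nid1* show no overlap between the days, whereas for *Lamb1* day 14 replicate 2 (36.4 FPKM) lies below day 10 replicate 3 (46.4 FPKM), and in the lower row the days overlap in all 5 genes.

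The α chains give a laminin its receptor binding. *Lama4* (α4; mm10 chr10:38965515-39110188, + strand, 38 exons in its longest transcript) encodes the α chain of vessels and mesenchyme and was measured at 28.3, 28.2 and 36.8 FPKM in the day 10 samples and 50.8, 39.5 and 58.6 FPKM in the day 14 samples. All 3 day 14 samples were above all day 10 samples, with the nearest pair being day 14 replicate 2 and day 10 replicate 3. The means were 31.1 ± 4.96 and 49.6 ± 9.61 FPKM (SD, n = 3), and the log2 fold change was 0.66 (SE 0.19, 95% interval 0.22 to 1.11, unadjusted p = 0.00815, adjusted p = 0.340 by limma). On the TPM scale the order of that nearest pair turned, at 81.1 for day 14 replicate 2 and 85.3 for day 10 replicate 3.

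*Lama2* (α2; mm10 chr10:26980036-27619758, − strand, 65 exons), the chain best known from the sheets around muscle fibres and Schwann cells, was at a far lower level. It was measured at 2.19, 2.18 and 3.32 FPKM in the day 10 samples and 4.28, 5.87 and 8.38 FPKM in the day 14 samples. The days did not overlap on any of the scales used, and day 14 replicate 3 was the highest sample. The log2 fold change was 1.21 (SE 0.31, 95% interval 0.50 to 1.92), a fold of 2.32 with an unadjusted p of 0.00420 and an adjusted p of 0.310 by limma. About 100.8 to 556 reads per sample were estimated behind these values. Within the 33 other member and partner genes with a mean of at least 1 FPKM, *Smoc2*, a secreted calcium-binding matrix protein, followed *Lama2* most closely, with an SD of the log2 ratio of 0.13 over the 6 samples.

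*Lama5* (α5; mm10 chr2:180176373-180225859, − strand, 79 exons), the main α chain of mature epithelial and vessel sheets, was close to the limit of detection. It was measured at 0.0912, 0.130 and 0.230 FPKM in the day 10 samples and 0.156, 0.377 and 0.101 FPKM in the day 14 samples, which is about 5 to 25 reads per sample. The days overlapped, and the log2 fold change of 0.25 had a 95% interval of −1.28 to 1.79, so that a difference was not detectable at this depth. The 2 other α chains, *Lama1* of early embryonic sheets and *Lama3* of epidermal anchoring, were at 0.145 to 2.04 FPKM and 0.0279 to 0.324 FPKM.

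Set against the summed FPKM of all 5 α chain genes, *Lama4* made up 91.4%, 90.1% and 90.0% on day 10 and 88.2%, 86.0% and 86.3% on day 14. *Lama2* made up 7.07%, 6.96% and 8.11% on day 10 and 7.42%, 12.8% and 12.3% on day 14. *Lama4* thus accounted for most of the α chain expression in every sample, and its share was lower in all 3 day 14 samples (exact two-sided permutation test, p = 0.1, the smallest that 3 against 3 samples allow). The *Lama2* share overlapped between the days, since day 14 replicate 1 lay among the day 10 samples (exact permutation p = 0.2).

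The β chains were expressed mainly from a pair of genes. *Lamb1* (β1; mm10 chr12:31265234-31329644, + strand, 33 exons), the β chain of most laminins, was measured at 23.0, 27.7 and 46.4 FPKM in the day 10 samples and 56.8, 36.4 and 73.6 FPKM in the day 14 samples. Day 14 replicate 2 was below day 10 replicate 3, and the other 4 samples were separated by day. The log2 fold change was 0.79 (SE 0.32, 95% interval 0.05 to 1.52, unadjusted p = 0.0381, adjusted p = 0.464 by limma), and it was 1.06 without day 14 replicate 2 and 1.08 without day 10 replicate 3.

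*Lamb2* (β2; mm10 chr9:108479736-108490530, + strand, 33 exons), the β chain of neuromuscular junctions and of the kidney filter, was measured at 65.0, 81.5 and 44.9 FPKM in the day 10 samples and 55.4, 69.3 and 61.0 FPKM in the day 14 samples. All 3 day 14 samples lay within the range of day 10. The means were 63.8 ± 18.3 and 61.9 ± 6.98 FPKM (SD, n = 3), and the log2 fold change was −0.01 with a 95% interval of −0.52 to 0.51. The ratio of *Lamb2* to *Lamb1* was 2.83, 2.94 and 0.966 on day 10 and 0.976, 1.91 and 0.829 on day 14. Day 10 replicate 3 was thus like day 14 replicate 1 in its β chains, and the log2 difference of the ratio of −0.79 was within the spread between samples (exact two-sided permutation test, p = 0.3, p = 0.6 adjusted over the 4 planned ratios). Further ratios that were not planned were tested as well and are not part of this adjustment. The third β chain gene, *Lamb3*, whose product anchors the epidermis, was at 0.661 to 1.99 FPKM.

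*Lamc1* (γ1; mm10 chr1:153218922-153332786, − strand, 28 exons), the γ chain of nearly all basement membrane laminins and the one that nidogens bind, was measured at 31.1, 34.8 and 43.8 FPKM in the day 10 samples and 57.7, 45.6 and 90.5 FPKM in the day 14 samples. The days did not overlap, although day 14 replicate 2 was only slightly above day 10 replicate 3, and on the TPM scale it was below it (93.7 against 101). The log2 fold change was 0.77 (SE 0.26, 95% interval 0.19 to 1.36, unadjusted p = 0.0160, adjusted p = 0.384 by limma). *Lamc3*, which encodes the γ3 chain, was low, at 0 to 0.603 FPKM.

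A laminin trimer needs its β and γ chains together, and the ratio of *Lamb1* to *Lamc1* stayed between 0.739 and 1.06 in the 6 samples. Its log2 difference between the days was 0.01 (exact permutation p = 0.8, adjusted p = 0.8). By the SD of the log2 ratio over the 6 samples, *Lama4* and *Lamc1* were each other's most alike gene (0.18), as were *Lamb1* and *Nid1* (0.18). For *Lamb2* the most alike gene was the syndecan *Sdc4* (SD 0.23).

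*Lamb1* and *Nid1* were each other's most alike gene, while the paralogue *Lamb2* had nearly equal means on both days. The promoters of these 3 genes are shown (RefSeq, GRCm38.p6). Each window holds 300 bases around the start, most of them before it, written in the direction of the gene. The windows are chr12:31265043-31265342, chr13:13437352-13437651 and chr9:108479612-108479911, all on the + strand. Capitals mark GC boxes, searched as GGGCGG on both strands, of which overlapping matches were each counted.
Lamb1: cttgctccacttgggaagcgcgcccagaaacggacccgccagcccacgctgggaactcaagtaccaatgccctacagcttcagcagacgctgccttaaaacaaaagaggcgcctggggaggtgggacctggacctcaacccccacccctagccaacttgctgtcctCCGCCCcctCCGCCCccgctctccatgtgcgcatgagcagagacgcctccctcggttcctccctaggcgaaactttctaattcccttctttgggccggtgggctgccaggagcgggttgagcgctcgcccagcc
Nid1: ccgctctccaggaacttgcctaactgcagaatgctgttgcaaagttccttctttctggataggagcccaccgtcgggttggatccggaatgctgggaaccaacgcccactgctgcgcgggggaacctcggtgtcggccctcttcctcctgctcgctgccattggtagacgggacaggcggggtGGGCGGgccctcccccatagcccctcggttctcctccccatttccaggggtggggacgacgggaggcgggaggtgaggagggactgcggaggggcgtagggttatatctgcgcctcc
Lamb2: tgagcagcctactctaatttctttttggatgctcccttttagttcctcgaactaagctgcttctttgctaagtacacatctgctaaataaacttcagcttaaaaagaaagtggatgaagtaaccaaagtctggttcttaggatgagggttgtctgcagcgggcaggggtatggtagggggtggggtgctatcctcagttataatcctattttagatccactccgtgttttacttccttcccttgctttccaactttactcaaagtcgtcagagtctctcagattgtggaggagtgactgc
The *Lamb1* window held 2 GC boxes, the *Nid1* window 1 and the *Lamb2* window 0. Of the other members, *Hspg2* held 5, *Lama5* 4, *Agrn* 2 and 12 at its 2 starts, and *Lama2* 1. GC boxes were thus found both in members whose days overlapped and in members whose days did not. Promoters were found in the RefSeq table for 7 of the 10 members, *Agrn* with 2 starts, and not for *Lama4*, *Lamc1* and *Nid2*. Of these 8 windows, 7 held a GC box, compared with 35.66% of all 32851 promoters. GC content was 63.7% for *Lamb1*, 64.7% for *Nid1* and 44% for *Lamb2*, with 18, 20 and 4 CpG dinucleotides, and the median over all promoters was 52.7% with 7 CpG. For the other members it was 70.3% (27 CpG) for *Hspg2*, 72.7% (24) for *Lama5*, 61.3% (11) and 83.3% (42) for *Agrn*, and 50.3% (1) for *Lama2*. The TATA box (TATAAA, both strands) was found in 13.62% of all promoters, the E-box (searched as CACGTG) in 7.15% and the AP-1 site (searched as TGANTCA) in 7.808%, and none of the 8 windows held any of these motifs. These matches describe letters in the windows, and no binding was measured.

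Among the linkers, *Nid1* (nidogen-1; mm10 chr13:13437551-13512269, + strand, 20 exons) had the highest mean of the 10 members on both days. It was measured at 66.7, 73.3 and 128 FPKM in the day 10 samples and 156, 134 and 233 FPKM in the day 14 samples. The day 14 samples were all above the day 10 samples, with day 10 replicate 3 reaching almost the level of day 14 replicate 2. The means were 89.2 ± 33.4 and 174 ± 51.8 FPKM (SD, n = 3), and the log2 fold change was 0.99 (SE 0.29, 95% interval 0.32 to 1.65, unadjusted p = 0.00894, adjusted p = 0.340 by limma). Scaled to TPM, day 14 replicate 2 was below day 10 replicate 3 (276 against 295). In the order of mean FPKM over all listed genes, *Nid1* was in place 627 on day 10 and in place 352 on day 14.

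*Nid2* (nidogen-2; mm10 chr14:19751265-19811787, + strand, 21 exons), its paralogue with a largely shared role, was measured at 38.7, 31.7 and 56.8 FPKM in the day 10 samples and 46.7, 42.4 and 58.3 FPKM in the day 14 samples. The days overlapped, and replicate 3 was the highest sample on each day. A log2 fold change of 0.24 was obtained with a 95% interval of −0.29 to 0.77 (adjusted p = 0.801 by limma). Of the 5174 exon bases of *Nid2*, 437 are shared with *Rtraf* on the opposite strand, which was at 18.8 to 27.7 FPKM, and reads of the 2 genes in that stretch could not be separated without strand.

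The balance of the 2 nidogens was separated by day in these 6 samples. The ratio of *Nid2* to *Nid1* was 0.580, 0.433 and 0.445 on day 10 and 0.30, 0.32 and 0.25 on day 14. All 3 day 14 ratios were below all day 10 ratios, and as a ratio within a sample this does not depend on how samples were scaled. The log2 difference was −0.75 (exact two-sided permutation test, p = 0.1, the smallest possible, and 0.4 adjusted over the 4 ratios), and it was −0.81 without day 14 replicate 2. *Nid1* made up 63.3% to 69.8% of the summed nidogen FPKM on day 10 and 76.0% to 80.0% on day 14.

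**Figure D2:**
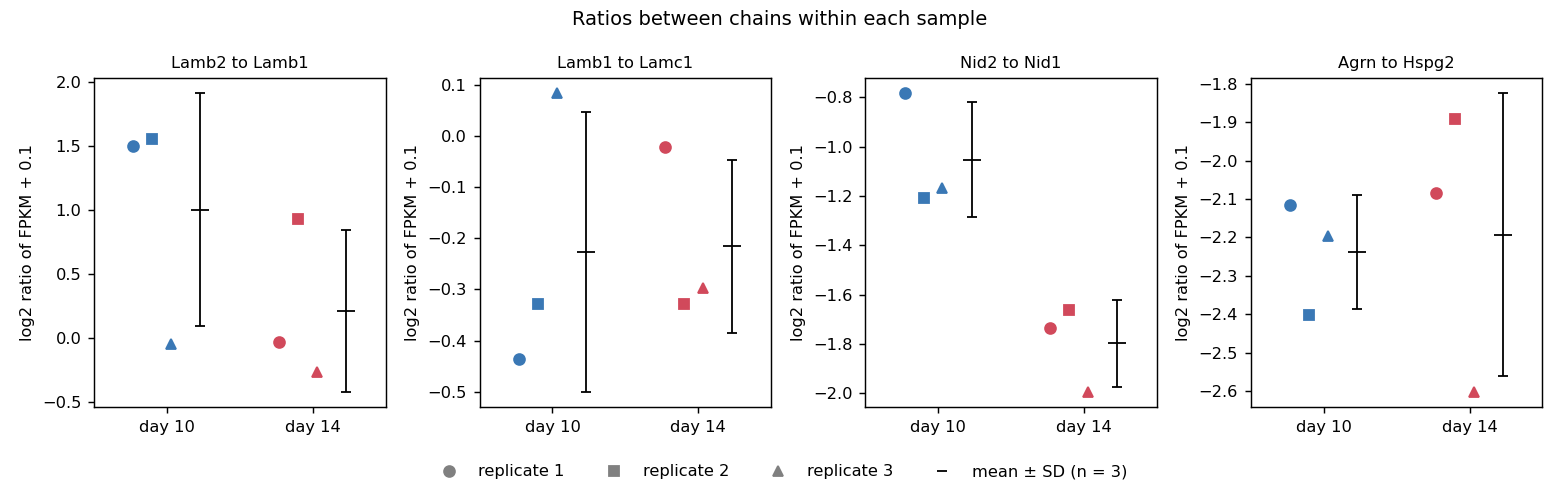
Log2 ratio of FPKM + 0.1 (y axis, not from 0) between pairs of genes within each sample of day 10 (blue) and day 14 (red), with bars for means ± SD (n = 3). The ratio of *Nid2* to *Nid1* is lower in all 3 day 14 samples, and the other 3 ratios overlap between the days.

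For both proteoglycans the difference between the days was within the spread between samples. *Hspg2* (perlecan; mm10 chr4:137468769-137570630, + strand, 97 exons), which binds growth factors through its heparan sulphate chains, was measured at 35.2, 38.1 and 36.0 FPKM in the day 10 samples and 33.5, 44.1 and 44.2 FPKM in the day 14 samples. Day 14 replicate 1 was the lowest of the 6 samples and the other day 14 samples were the highest. Its log2 fold change was 0.15 with a 95% interval of −0.22 to 0.51, the narrowest of the 10 members (adjusted p = 0.830 by limma). Its most alike gene was *Itgb1*, the β1 subunit shared by most laminin-binding integrins, with an SD of the log2 ratio of 0.059 and a level of 210 to 287 FPKM.

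*Agrn* (agrin; mm10 chr4:156165290-156197488, − strand, 36 exons), which clusters acetylcholine receptors at the neuromuscular junction in its neural form, was measured at 8.05, 7.12 and 7.78 FPKM in the day 10 samples and 7.83, 11.8 and 7.18 FPKM in the day 14 samples. Day 14 replicate 2 was the highest sample and the other 5 lay close together. With all samples, its log2 fold change was 0.19 (95% interval −0.32 to 0.70) and −0.03 without day 14 replicate 2. The ratio of *Agrn* to *Hspg2* differed by a log2 value of 0.04 between the days (exact permutation p = 0.8, adjusted p = 0.8). Of the agrin receptor genes, *Lrp4* was measured at 5.61, 9.10 and 3.51 FPKM in the day 10 samples and 2.95, 7.34 and 0.858 FPKM in the day 14 samples, with a log2 fold change of −1.04 (adjusted p = 0.677 by limma; −1.75 without day 14 replicate 2), and the days overlapped.

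In the order of mean levels, *Nid1* was followed on day 10 by *Lamb2* (63.8 FPKM), *Nid2* (42.4 FPKM), *Lamc1* (36.6 FPKM), *Hspg2* (36.4 FPKM), *Lamb1* (32.4 FPKM) and *Lama4* (31.1 FPKM), and the sample ranges of neighbours in this order overlapped. *Agrn* (7.65 FPKM), *Lama2* (2.56 FPKM) and *Lama5* (0.150 FPKM) were each separated from the gene above them in all samples. On day 14 the order was *Nid1*, *Lamc1* (64.6 FPKM), *Lamb2* (61.9 FPKM), *Lamb1* (55.6 FPKM), *Lama4* (49.6 FPKM), *Nid2* (49.1 FPKM), *Hspg2* (40.6 FPKM), *Agrn* (8.94 FPKM), *Lama2* (6.17 FPKM) and *Lama5* (0.211 FPKM). Here *Nid1* was above *Lamc1* in all samples, neighbours from *Lamc1* to *Hspg2* overlapped, and *Agrn* and *Lama2* overlapped through the 8.38 FPKM of *Lama2* in replicate 3.

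The samples of one day were not alike. Day 10 replicate 3 had the highest value of its day in 7 of the 10 members, and day 14 replicate 3 had the highest value of all 6 samples in 7. These were the samples with the lowest OB marker level of their day: the mean log2(FPKM + 0.1) of the 7 OB markers was 8.84, 8.90 and 7.93 on day 10 and 6.81, 8.38 and 5.92 on day 14. Over the 6 samples, Pearson's r with this mean was −0.96 for *Lama4* (Spearman's rho −0.94), −0.95 for *Lamb1* (rho −0.94), −0.97 for *Lamc1* (rho −0.89) and −0.92 for *Nid1* (rho −0.89). Permuted freely over the 6 samples, which ignores the day, exact p-values for r were 0.00417, 0.00417, 0.00556 and 0.0125 (0.0185 for the first 3 genes and 0.0313 for *Nid1* after adjustment over the 10 relations), and those for rho were 0.0167, 0.0167, 0.0333 and 0.0333 (0.0556, 0.0556, 0.0667 and 0.0667 adjusted). Without the 2 samples farthest from the median marker level, r was −0.84, −0.95, −0.83 and −0.88 in the same order of genes. These were day 14 replicates 1 and 3, which left replicate 2 as the only day 14 sample. The relation was computed for the members, *Col4a1* and *Col4a2* only. How many of all genes follow the marker level as closely is therefore not known, nor whether these members stand out.

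For *Lama2* r was −0.79 and rho −0.83 (exact permutation p = 0.0694 and 0.0583), and for *Nid2* r was −0.77 and rho −0.94 (exact permutation p = 0.0847 and 0.0167, adjusted 0.141 and 0.0556). *Lamb2* (r 0.42, rho 0.71), *Hspg2* (r −0.22, rho −0.14), *Agrn* (r 0.29, rho 0.03) and *Lama5* (r 0.20, rho −0.09) had weaker values in 6 samples (exact permutation p from 0.136 to 1). Without day 14 replicates 1 and 3, r was −0.59 for *Lama2*, −0.95 for *Nid2*, 0.86 for *Lamb2*, −0.09 for *Hspg2*, −0.26 for *Agrn* and −0.67 for *Lama5*. Since both the markers and these members differed in mean between the days, the relation was also computed within days, a choice made after seeing the data, with values centred on the mean of their day and 36 exact permutations within days. The within-day r was −0.97 for *Lama4* (p = 0.0278, the smallest that 36 permutations allow), −0.91 for *Lamb1* (p = 0.0556), −0.94 for *Lamc1* (p = 0.111), −0.83 for *Nid1* (p = 0.0556), −0.75 for *Nid2* (p = 0.0278) and −0.53 for *Lama2* (p = 0.472). Positive within-day r was found for *Agrn* (0.84), *Lama5* (0.58), *Lamb2* (0.58) and *Hspg2* (0.165), with exact permutation p from 0.139 to 0.833. None of the 10 within-day relations passed adjustment over them, with the lowest adjusted p at 0.139. On day 14 the order of *Lama4*, *Lamb1*, *Lamc1*, *Nid1* and *Nid2* was the reverse of the order of OB markers, and on day 10 replicate 3 had the highest level of all 5 and the lowest OB marker level.

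**Figure D3:**
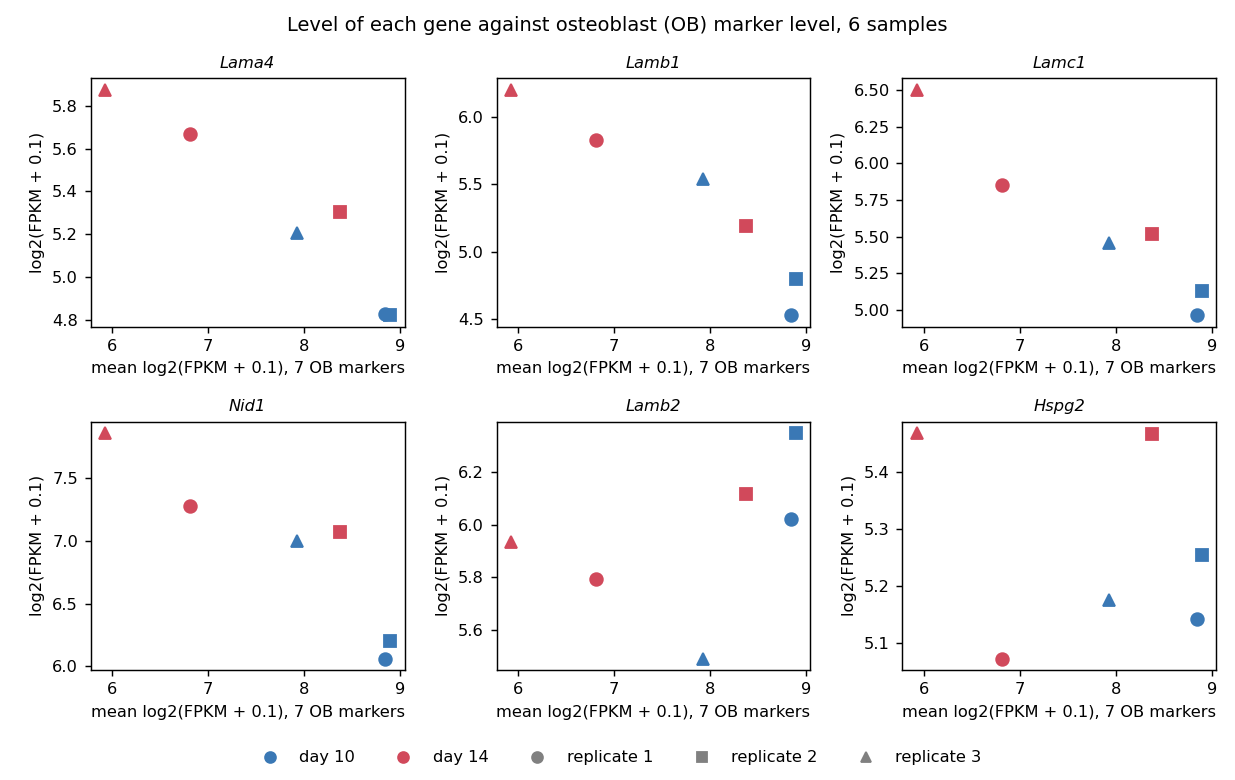
Log2(FPKM + 0.1) of 6 member genes (y axis, not from 0) against the mean log2(FPKM + 0.1) of 7 OB markers (x axis) in the 6 samples, day 10 in blue and day 14 in red. *Lama4*, *Lamb1*, *Lamc1* and *Nid1* are higher in samples with a lower OB marker level (r from −0.97 to −0.92), also within day 14. *Lamb2* (r 0.42) and *Hspg2* (r −0.22) have weaker relations over the 6 samples.

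The other genes of the structure were described from 4 lists with 43 genes, of which 41 were tested. None passed an adjusted p of 0.05; 9 had an unadjusted p under 0.05 with a higher level on day 14 and 2 with a lower level, 11 were higher in all 3 day 14 samples and 1 was lower, beside the shares over all genes given above. The median log2 fold change of the 41 genes was 0.30. *Lama1*, *Lama3*, *Lamb3* and *Lamc3*, the other laminin chain genes described above, had unadjusted p-values over 0.05 and were at 2.04 FPKM or less.

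Among the 8 basement membrane collagen genes, *Col4a1* and *Col4a2*, whose products form the common type IV collagen network, had the largest fold changes. *Col4a1* was measured at 3.06, 3.12 and 6.41 FPKM in the day 10 samples and 41.2, 20.0 and 23.3 FPKM in the day 14 samples, and *Col4a2* was at 2.10, 1.72 and 3.38 FPKM and at 19.7, 10.2 and 12.4 FPKM. Both genes were separated by day with a wide gap, and their highest sample was day 14 replicate 1, whereas that of *Lama2*, *Lama4*, *Lamb1*, *Lamc1* and *Nid1* was day 14 replicate 3. The log2 fold changes were 2.73 (SE 0.36, adjusted p = 0.116 by limma) and 2.51 (SE 0.33, adjusted p = 0.116), folds of 6.64 and 5.68, and their adjusted p-values over the alternatives lay between 0.0814 and 0.976. *Col4a3*, *Col4a4* and *Col4a6* were at 0.0602 to 0.755 FPKM, and *Col4a5* was at 3.54 to 9.18 FPKM with a log2 fold change of −0.08. *Col15a1*, of the outer face of basement membranes, was measured at 1.28, 1.81 and 2.36 FPKM in the day 10 samples and 11.5, 2.41 and 10.5 FPKM in the day 14 samples (log2 fold change 1.85, adjusted p = 0.357 by limma), with day 14 replicate 2 next to the day 10 samples. Without that sample its log2 fold change was 2.57 (adjusted p = 0.0754 by limma). *Col18a1*, the source of endostatin, had a log2 fold change of 0.60 (adjusted p = 0.525) and days that did not overlap.

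**Figure D4:**
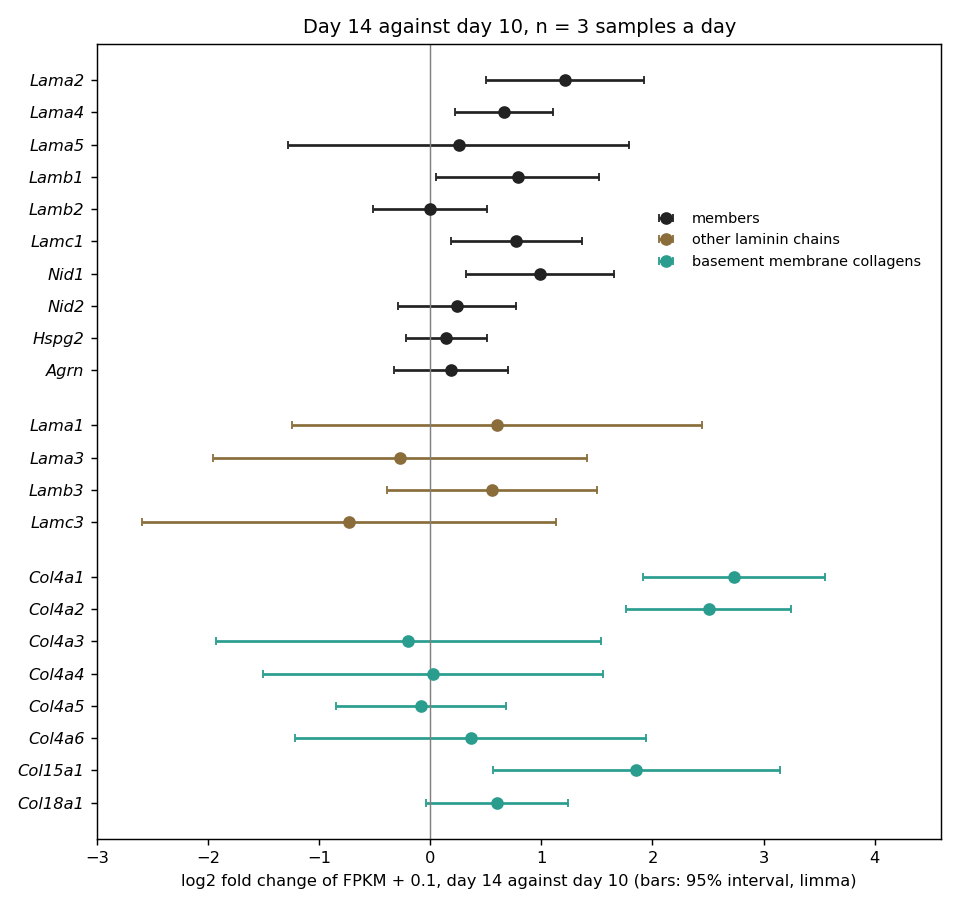
Log2 fold change of FPKM + 0.1, day 14 against day 10 (x axis), with 95% intervals from limma (n = 3 samples a day) for the 10 members (black), 4 other laminin chains (brown) and the 8 basement membrane collagens (green). The intervals of *Lama2*, *Lama4*, *Lamb1*, *Lamc1*, *Nid1* and *Col15a1* lie above 0, those of *Col4a1* and *Col4a2* lie farthest from 0, and the interval of *Lamb2* is centred near 0.

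Of the 14 tested genes of other basement membrane proteins, 4 were higher and 1 was lower without overlap, beside 7.59% higher and 6.67% lower over all genes. *Fbln1*, a fibulin that binds nidogen and laminin, had a log2 fold change of 1.45 (80.9 to 207 FPKM on day 14 against 37.1 to 66.9 FPKM on day 10, adjusted p = 0.305 by limma). *Ntn4*, a laminin-related netrin that binds γ1 chains, had one of 1.11 (adjusted p = 0.305), *Smoc2* one of 1.08 (104 to 145 FPKM on day 10 and 189 to 311 FPKM on day 14, adjusted p = 0.292) and *Ecm1* one of 0.59 (adjusted p = 0.468). The lower gene was *Fras1*, named here after its values were seen, at 0.935 to 1.88 FPKM on day 10 and 0.118 to 0.657 FPKM on day 14. *Npnt*, an integrin α8 ligand, was measured at 37.7, 23.1 and 17.9 FPKM in the day 10 samples and 8.02, 19.2 and 3.52 FPKM in the day 14 samples (log2 fold change −1.60, adjusted p = 0.398), with an overlap through day 14 replicate 2, and its log2 fold change was −2.21 without that sample. *Fbln2* had the highest mean of these lists (518 and 890 FPKM) and a log2 fold change of 0.71 with overlapping days (adjusted p = 0.616).

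Of the 14 receptor genes, *Itga1*, the α subunit of a collagen- and laminin-binding integrin, was at 2.65 to 4.78 FPKM on day 10 and at 8.23 to 14.7 FPKM on day 14 (log2 fold change 1.47, adjusted p = 0.292 by limma). *Sdc1*, a cell surface proteoglycan, had a log2 fold change of 0.90 (adjusted p = 0.314), and *Dag1*, dystroglycan, one of 0.30 (adjusted p = 0.534). These 3 genes were higher in all day 14 samples and none of the 14 was lower in all of them, beside 7.59% higher and 6.67% lower over all genes. *Itga3* and *Itga6*, α subunits of the main laminin-binding integrins of epithelia, were at 0.0304 to 0.376 FPKM and 0 to 0.510 FPKM, and *Itga7*, which binds laminins in muscle, was at 1.93 to 3.31 FPKM.

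**Figure D5:**
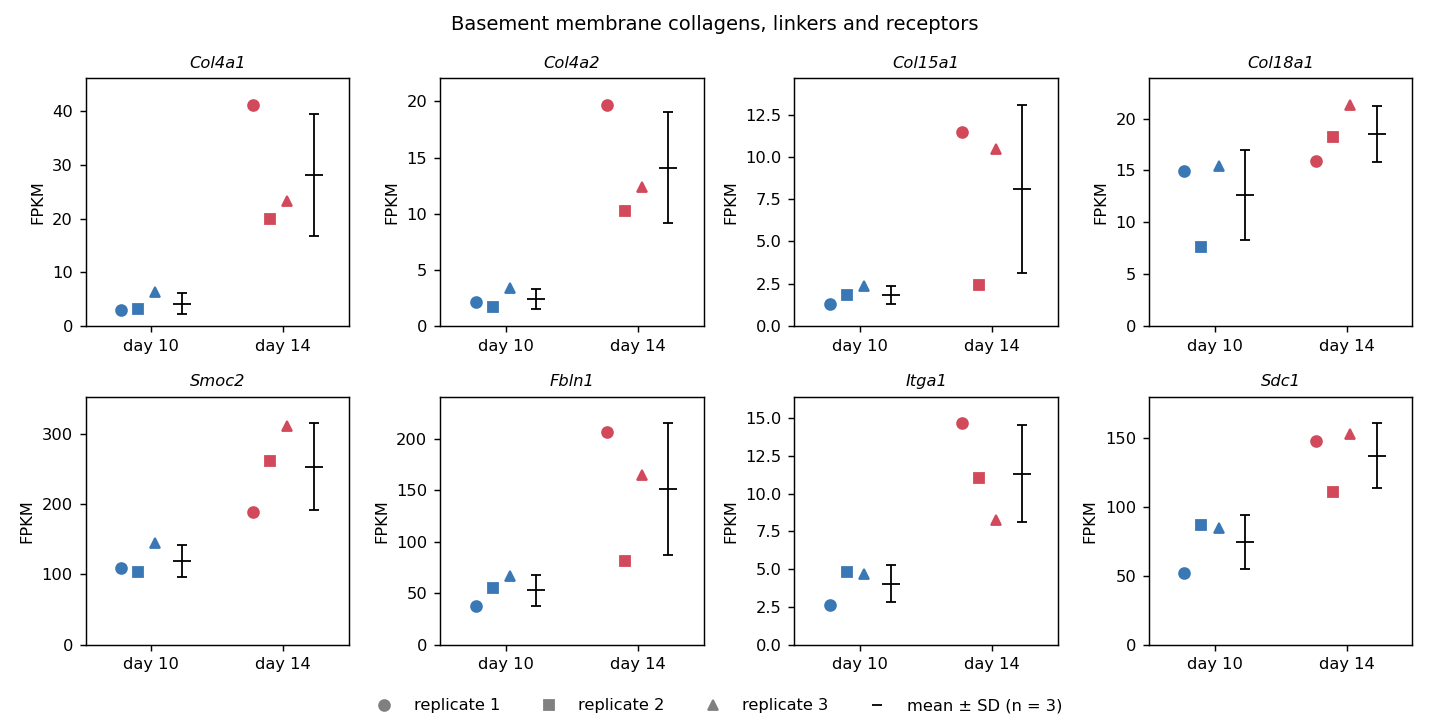
FPKM of 8 partner genes of the basement membrane (y axis, linear, from 0) in each sample of day 10 (blue) and day 14 (red), with bars for means ± SD (n = 3). All 8 genes are higher in the 3 day 14 samples than in the 3 day 10 samples, with *Col15a1* in day 14 replicate 2 (2.41 FPKM) just above day 10 replicate 3 (2.36 FPKM).

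Markers of other cells that make basement membranes were read beside these values. The 10 endothelial markers summed to 2.51 to 4.56 FPKM on day 10 and to 5.70 to 10.96 FPKM on day 14. All 10 had a higher fitted level on day 14, beside 46.5% of all genes tested. Of the 10, *Pecam1*, *Emcn* and *Esam* were higher in all day 14 samples, beside 7.59% of all genes. Of the defining markers, *Pecam1* was at 0.268 to 0.657 FPKM on day 10 and at 0.720 to 1.35 FPKM on day 14, a log2 fold change of 0.99, and *Cdh5* did not exceed 0.752 FPKM. The 10 pericyte and smooth muscle markers summed to 327 to 693 FPKM and 482 to 583 FPKM, mostly from *Acta2*, with the defining markers *Rgs5* and *Myh11* at 1.502 FPKM or less. Of these 10 markers, 6 had a higher fitted level on day 14, and *Pdgfrb* and *Notch3* were higher in all day 14 samples. *Cspg4*, *Cnn1*, *Kcnj8* and *Myh11* had log2 fold changes of −0.96, −0.55, −0.43 and −0.15 with overlapping days. The 8 Schwann cell markers summed to 46.3 to 70.5 FPKM and 85.7 to 134 FPKM, nearly all from *Pmp22*, which is also expressed outside nerves; the defining markers did not exceed 0.367 FPKM and *Ngfr* was at 0 in all samples. The 7 adipocyte markers summed to 18.4 to 31.5 FPKM and 48.4 to 77.9 FPKM through *Lpl* and *Fabp4*, and the defining markers did not exceed 0.214 FPKM. The 7 skeletal muscle markers summed to at most 9.34 FPKM, the 7 keratinocyte markers to at most 3.85 FPKM, and neither list was higher in day 14. The 10 chondrocyte markers summed to 669 to 1302 FPKM on day 10 and to 180, 2329 and 160 FPKM on day 14, with day 14 replicate 2 the highest of all samples, and the 8 myeloid markers summed to 31.1 to 134 FPKM and 11.5 to 549 FPKM. The sums of the endothelial, Schwann cell and adipocyte lists were separated by day like *Lama2*, *Lama4*, *Lamc1* and *Nid1*. The part of these cells in the levels of the 10 members was not tested.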

How the data were processed

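RNA-seq was analysed for 3 samples of day 10 and 3 of day 14, grouped by their titles. The authors sequenced SMART-Seq cDNA, which carries no strand mark by the kit named, in 75-base single-end mode, and the submitters' processing notes name TopHat2 2.0.13, Bowtie2 2.2.3, SAMtools 0.1.19 and Cufflinks 2.2.1, with mm10 in the paper's methods. The authors deposited FPKM per gene, 1 file per sample, with no counts; the gene annotation they used is not given in the sources used here. Each file holds 23284 genes in an identical order, and 25 symbols turned into dates in 1 file were restored from the others by position. FPKM is relative to all reads of a sample, so a gene's value also moves with the abundance of others, and the TPM alternative removes only differences in the FPKM sum.

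Genes with a mean FPKM above 0.1 (19526) were tested with limma 3.58.1 (R 4.3.3) on log2(FPKM + 0.1), with a mean-variance trend and Benjamini-Hochberg adjustment over all of them; fold changes are on that scale and understate those of low genes. The script was tested on simulated data. Ratios within samples were compared by two-sided exact permutation tests. Reads were estimated from steps between low FPKM values over 2186 genes with a fragment length of 220 bases, which gave 75.7% to 80.2% of low values within 0.1 of a whole number, too few for a count test; 3 reads on 10000 bases then stand for 0.0385 to 0.0658 FPKM, counting error only. Positions are from GENCODE vM21, to which 22825 genes were matched. Cell type, partner and member lists were chosen with earlier results of these data known. Named were all members, laminin chains and basement membrane collagens, other partners of 1 FPKM or more on average and with a fold over 2 or days that did not overlap, the 3 with the highest means, defining markers, and the gene most alike each member. An item that falls under this rule is not reported here. Alternatives were pseudocounts, filters on low values, TPM, centring on the median of all genes or of long genes, no trend, a replicate block and leaving out each sample.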

Additional observations from a re-analysis of the deposited data

How the results depend on the processing

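No member or partner gene had an adjusted p under 0.05 in any of the 15 alternatives. When 1 sample was left out, members with an unadjusted p under 0.05 and a higher level numbered 2 to 5 (2 without day 10 replicate 1 or without day 10 replicate 2), members over a fold of 2 numbered 0 to 3, non-overlapping members 4 to 6, partner genes with an unadjusted p under 0.05 7 to 14 higher and 0 to 3 lower, and all genes 3 to 8 with an adjusted and 948 to 2666 with an unadjusted p under 0.05. The log2 fold change changed sign in these fits for *Lama5* (−0.10 to 0.52), *Lamb2* (−0.24 to 0.19), *Agrn* (−0.026 to 0.33), *Lama1* (−0.13 to 1.43), *Lama3* (−0.81 to 0.051), *Col4a3* (−0.88 to 0.33), *Col4a4* (−0.32 to 0.34), *Col4a5* (−0.47 to 0.20) and *Col4a6* (−0.087 to 0.86), and the log2 difference of the ratio for *Lamb1* to *Lamc1* (−0.093 to 0.17) and *Agrn* to *Hspg2* (−0.11 to 0.25). Without a mean-variance trend, 3 members and 1 lower partner gene had an unadjusted p under 0.05. With a pseudocount of 1, 0 members passed a fold of 2, since a larger pseudocount shrinks the fold changes of low genes such as *Lama2*. The log2 fold change of *Col4a3* was 0.0088 in that setting and −0.20 in the main fit. With TPM, 1 member was without overlap, and with a filter of a mean FPKM above 1, 1 lower partner gene remained under 0.05 and *Lama5* was not among the genes tested. *Lama2*, *Lama4*, *Lamc1* and *Nid1* kept a higher level on day 14 in every alternative, with log2 fold changes of 0.97 to 1.45, 0.54 to 0.82, 0.50 to 0.99 and 0.76 to 1.28. So did *Lamb1* (0.55 to 1.08), *Nid2* (0.054 to 0.47) and *Hspg2* (0.079 to 0.28), whose days overlapped in the main fit. Correlations of same-numbered samples, after centring on their day, were 0.06, −0.01 and 0.09, and those of differently numbered samples were −0.10 to 0.02. With 3 samples a day these small values cannot settle whether replicate numbers pair the samples. With a replicate block 2 genes had an adjusted and 2130 an unadjusted p under 0.05 (limma), and 5 members had the latter. The log2 differences of the 4 ratios were the same with it, at −0.79, 0.01, −0.75 and 0.04. The cause of the other changes was not tested. Depth limits *Lama5*, *Lama1*, *Lama3* and *Lamc3*, with 0 to 86.7 estimated reads per sample. It also limits *Col4a3*, *Col4a4* and *Col4a6*, with 2.98 to 28.7 estimated reads per sample.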
